A study of Mus musculus with 9 samples.

Results

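The nuclear genes that encode the respiratory chain and ATP synthase were followed in round spermatids (RS), the haploid germ cells that leave meiosis. The members are the genes whose symbol begins with Nduf, Cox4 to Cox8, Uqcr, Atp5 or Sdha to Sdhd, pseudogenes with the ending -ps left out. Of 104 listed genes with such a symbol, 97 had at least 10 counts summed over the 9 libraries and were tested, out of 25128 genes tested in all. They comprise 45 genes of complex I, 8 of complex II, 8 of complex III, 17 of complex IV, 17 of ATP synthase (complex V) and 2 extra gene copies, Ndufb11b and Ndufa11b. The 7 genes below 10 counts were Cox4i2, Cox6c2, Cox7a1, Cox8b, Ndufb4c, Ndufs6b and a second gene identifier for Atp5o. Symbols are those of the deposited table, in which some ATP synthase genes carry older names.

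RS cells labelled WT were incubated for 24 h in 3 groups of 3 libraries each. All groups received 0.15% DMSO, which was the vehicle. The oxamate group (libraries 4 to 6) also received 24 mM oxamate, an inhibitor of lactate dehydrogenase, and the third group (libraries 7 to 9) received 24 mM oxamate with 0.3 mM octyl-L-2HG, a form of L-2-hydroxyglutarate (L-2HG) that can enter cells. The comparisons ask which transcripts depend on lactate dehydrogenase activity in these cells, and which respond when L-2HG is supplied beside the inhibitor. No group received another octyl compound or octyl-L-2HG without oxamate, so an effect of the octyl part cannot be told apart from one of L-2HG. By the study's methods, RS cells were sorted from adult mice on the C57Bl/6 background in which Stra8-iCre, a Cre active in male germ cells from spermatogonia on, turns on tdTomato. The labels give the medium of all groups as one with added glutamine, lactate and pyruvate. The study describes the incubations as triplicates, and neither the labels nor the methods say whether their cells came from separate animals, so p-values measure the spread between these libraries, which may be technical.

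Complexes I to IV pass electrons from NADH and succinate to oxygen and, except for complex II, pump protons across the inner mitochondrial membrane, and ATP synthase uses the gradient to make ATP. Complex II is wholly nuclear encoded, and the other complexes join nuclear subunits to subunits encoded by mitochondrial DNA. Male germ cells replace several nuclear subunits by testis-restricted forms, among them the cytochrome c oxidase subunits Cox6b2, Cox7b2 and Cox8c and the electron carrier cytochrome c (Cyct for Cycs).

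The libraries held 32339533 to 39888396 counts, of which the members took 0.613% to 0.766%. The members' share was 0.712% ± 0.049 (SD, n = 3) in vehicle, 0.655% ± 0.044 in oxamate and 0.629% ± 0.015 with octyl-L-2HG, and vehicle library 1 (0.766%) and oxamate library 4 (0.705%) had the highest share of their groups. All 11 RS markers examined were detected, with summed normalized counts of 91709 to 96811 per library, against 32.3 to 53.1 for the 7 Sertoli markers and 19.7 to 40.3 for the 5 Leydig markers, and no Sertoli or Leydig marker was called in any contrast. The sums were 242 to 288 for the 7 spermatogonia markers, 82.4 to 113 for the 5 peritubular myoid and 112 to 162 for the 5 macrophage markers, also without a call. In oxamate against vehicle, 1 RS marker was called higher (Catsper1) and 2 lower, the late genes Prm1 (-0.45 on the log2 scale) and Tnp1 (-0.26), and with octyl-L-2HG against oxamate 3 were called lower. Of the RS markers, 2 were called higher with octyl-L-2HG than in vehicle, Acrv1 (0.25 on the log2 scale) and Acr (0.21). Another 5 were called lower, led by Prm1 (-0.77) and Tnp1 (-0.56), which have the shortest transcripts of the 11 (464.5 and 437 nt). The part of such marker changes in the members' values was not tested. Over all genes, 3.97% were called higher and 1.22% lower in oxamate against vehicle, 3.18% and 8.06% with octyl-L-2HG against oxamate, and 7.48% and 10.6% against vehicle. Of the 8 spermatocyte markers, 1 was called higher in oxamate against vehicle (Piwil1), 2 with octyl-L-2HG against oxamate (Sycp2 and Meioc) and 1 against vehicle (Meioc). They summed to 11699 to 14213 in vehicle and 13828 to 14477 with octyl-L-2HG. In such bulk samples, fewer cells of a type and less RNA per cell cannot be told apart.

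The highest level per kilobase among the members in vehicle was that of Cox8c, the testis form of subunit 8 of cytochrome c oxidase, at 22396 ± 2353 normalized counts per kilobase of transcript (mean ± SD, n = 3). Next came Atp5b (12672 ± 771), the catalytic beta subunit of ATP synthase, then Cox6b2 (11197 ± 1031) and Cox5a (11181 ± 918), whose levels differed by less than their SD. Among the functional groups, the median level per kilobase was 3830 for the 11 broad forms of complex IV and 5237 for the 5 restricted forms that passed the count filter, but 729.9 for all 8 restricted forms listed, of which 3 fell below the filter. It was 3861 for the 5 F1 subunits of ATP synthase, 3549 for the 5 accessory and 2752 for the 3 core subunits of complex III, and 1964 and 1677 for the 7 core and 30 accessory subunits of complex I. Assembly factors, which build the complexes without staying in them, lay lower, at a median of 389 for the 8 of complex I and 82.7 for the 4 of complex II.

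**Figure D1:**
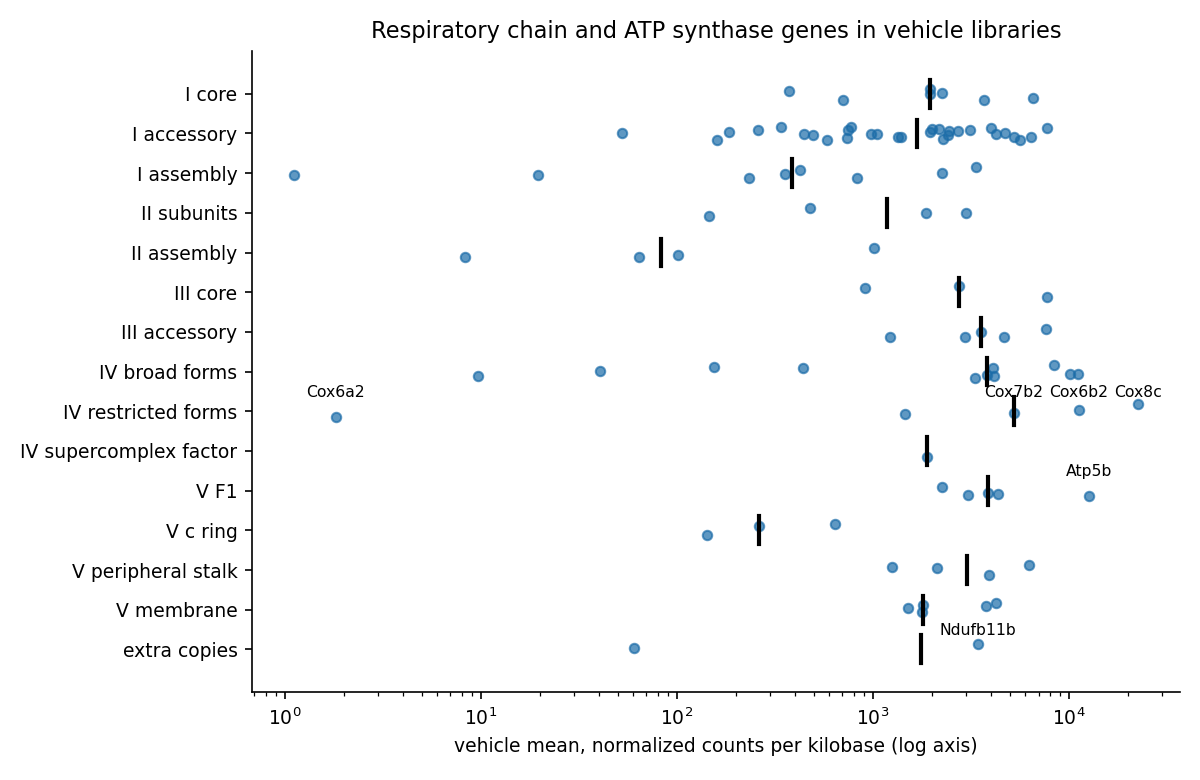
Mean level of each member in the 3 vehicle libraries, in normalized counts per kilobase of transcript on a log axis, by complex and role; each point is a gene and each bar the median of the tested genes of its group. Restricted forms of complex IV range from Cox8c at 22396 to Cox6a2 at 1.83, and the 3 c ring genes of ATP synthase lie between 142 and 644.

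Low levels were found within otherwise abundant complexes. The 3 genes for the c subunit of the ATP synthase rotor, Atp5g1, Atp5g2 and Atp5g3, had 264, 142 and 644 normalized counts per kilobase in vehicle, and every F1 subunit had at least 2250. The order of the 3 depends on the transcript lengths used, 2675.5, 586 and 718.5 nt. In normalized counts they had 705, 83.4 and 463, against 1831 for Atp5e, the lowest F1 subunit on that scale. The 3 members on the X chromosome were also low, with 185 ± 10.8 for Ndufa1, 52.3 ± 11.5 for Ndufb11 and 9.73 ± 2 for Cox7b. Ndufb11 and Cox7b each had an autosomal relative at a far higher level, Ndufb11b on chromosome 15 (3447 ± 263) and Cox7b2 on chromosome 5 (5237 ± 489.8). How reads shared by such near-identical copies were divided is not given in the sources used here, so the values of Ndufb11, Ndufb11b, Ndufa11 and Ndufa11b are uncertain to that extent.

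For 5 pairs of genes that encode alternative forms of a subunit, the restricted form made up nearly all of the pair per kilobase in every library. Cox7b2 gave 2807, 3118 and 2589.9 normalized counts in vehicle, 2675, 2836 and 2706 in oxamate and 2888, 3182 and 3069 with octyl-L-2HG, while its broad partner Cox7b gave 11.6, 7.58 and 10.1 in vehicle, 10.5, 10.6 and 12.1 in oxamate and 7.86, 9.22 and 12.2 with octyl-L-2HG. The vehicle share of Cox7b2 was 99.8% ± 0.049, a ratio of 538 to 1. Cox8c, with 11471, 9888 and 9414 in vehicle, 9496, 8427 and 8101 in oxamate and 8055, 7855 and 7727 with octyl-L-2HG, stood against 95.1, 84.3 and 76 in vehicle for Cox8a, and took 99.3% ± 0.019, a ratio of 145 to 1. For Cox6b2, which with Cox6b1 forms the subunit at the dimer interface of the oxidase, the values were 6795, 6119 and 5662 in vehicle, 6204, 5383 and 4891 in oxamate and 4989.6, 5118 and 5193 with octyl-L-2HG, against 279.9, 259 and 280.2 in vehicle for Cox6b1. Its share was 96.2% ± 0.37, a ratio of 25.4 to 1.

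Ndufa4l2 and Ndufa4 are related genes, of which Ndufa4 encodes a peripheral subunit of cytochrome c oxidase. Ndufa4l2 had 1477, 1285 and 1319.7 in vehicle, 1455, 1285 and 1201 in oxamate and 1411, 1349 and 1324 with octyl-L-2HG normalized counts, and Ndufa4 had 19.5, 23.7 and 21.1 in vehicle, 22.9, 22.1 and 15.3 in oxamate and 12.4, 17.3 and 13.1 with octyl-L-2HG. Ndufa4l2 therefore made up 97.3% ± 0.43 of the pair in vehicle per kilobase, and Ndufb11b made up 98.5% ± 0.23 of its pair with Ndufb11. Not every extra form was used in this way. Cox4i2, Cox6a2 and Cox7a1, forms of subunits 4, 6a and 7a known from lung, heart and muscle, had 2, 10 and 7 counts in all 9 libraries together, and Ndufa11b gave 7.35% ± 0.93 of its pair with Ndufa11. Cytochrome c was split in a similar way, with 1902, 1818 and 1831 in vehicle, 1748, 1757 and 1852 in oxamate and 2015, 1847 and 1791 with octyl-L-2HG for the testis form Cyct and 85.3, 126 and 114 in vehicle, 76.2, 103 and 105 in oxamate and 98.8, 95.7 and 109.5 with octyl-L-2HG for Cycs.

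Between groups the shares of these 5 pairs differed by under 1 percentage point. Cox6b2 took 96.2% ± 0.37 of its pair in vehicle, 95.9% ± 0.5 in oxamate and 95.3% ± 0.21 with octyl-L-2HG, and its 3 values with octyl-L-2HG (95.1% to 95.5%) lay below all 3 of vehicle (95.8% to 96.4%). Ndufa4l2 went from 97.3% ± 0.43 in vehicle to 98.2% ± 0.35 with octyl-L-2HG, again without overlap. The widest shift was that of Ndufa11b, from 7.35% ± 0.93 of its pair with Ndufa11 in vehicle (6.36% to 8.19%) and 7.3% ± 2.4 in oxamate to 4.24% ± 1.4 with octyl-L-2HG (2.95% to 5.71%), without overlap with vehicle. Each of these 3 differences from vehicle had an exact two-sided permutation p = 0.1, which is the smallest that 3 libraries against 3 allow, so no share could pass 0.05. The 9 pairs were compared in 3 contrasts each, and the pairs with the extra copies were added after the data had been seen.

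**Figure D2:**
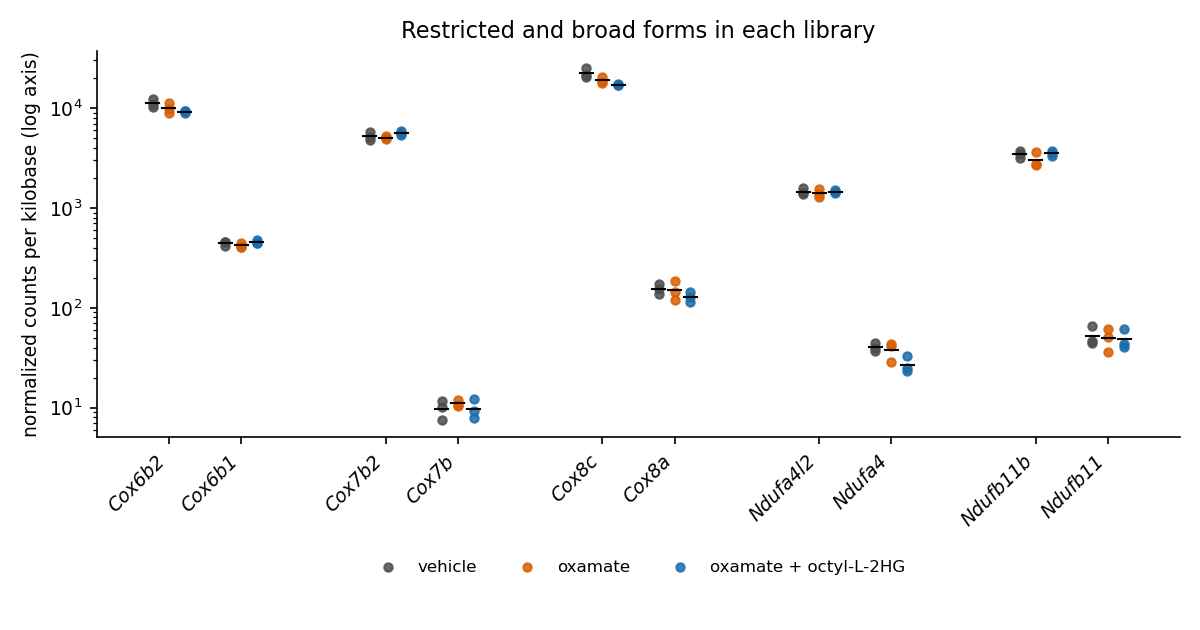
Levels of 5 restricted forms, each beside its broad partner, in normalized counts per kilobase on a log axis; each point is a library and each dash a group mean. The restricted form lies above its partner in all 9 libraries of each pair, from 25.4-fold for Cox6b2 to 538-fold for Cox7b2 in vehicle.

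The regions before the start of the restricted and broad forms are shown for the pairs with both genes in the RefSeq promoter table (GRCm38.p6, not the build of the counts). Each is the 250 bases before the annotated start, 5′ to 3′ on the gene's strand, and capitals mark the ETS core CGGAAG, bound by GABP and other ETS factors, the CCAAT box, and TGCGCA, a part of the site of the factor NRF1, on either strand. The windows are chr7:30626115-30626364 for Cox6b1, chr7:4753095-4753344 for Cox6b2 and chr5:71548206-71548455 for Cox7b2, all on the minus strand, and chrX:106015450-106015699 for Cox7b on the plus strand.
Cox6b1: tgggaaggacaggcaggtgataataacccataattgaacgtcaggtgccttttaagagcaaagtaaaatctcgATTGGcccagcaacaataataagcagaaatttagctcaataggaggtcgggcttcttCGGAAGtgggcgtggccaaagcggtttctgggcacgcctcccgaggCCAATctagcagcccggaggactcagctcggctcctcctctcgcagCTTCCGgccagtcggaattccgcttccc
Cox6b2: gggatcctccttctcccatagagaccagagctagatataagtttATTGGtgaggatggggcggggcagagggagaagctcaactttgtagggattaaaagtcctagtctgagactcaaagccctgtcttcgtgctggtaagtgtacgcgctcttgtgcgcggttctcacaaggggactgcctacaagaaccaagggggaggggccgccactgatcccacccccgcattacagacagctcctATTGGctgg
Cox7b: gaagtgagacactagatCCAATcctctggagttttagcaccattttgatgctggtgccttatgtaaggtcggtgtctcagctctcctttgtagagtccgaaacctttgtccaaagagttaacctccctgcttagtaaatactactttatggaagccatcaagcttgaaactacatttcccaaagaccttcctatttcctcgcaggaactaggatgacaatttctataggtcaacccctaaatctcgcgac
Cox7b2: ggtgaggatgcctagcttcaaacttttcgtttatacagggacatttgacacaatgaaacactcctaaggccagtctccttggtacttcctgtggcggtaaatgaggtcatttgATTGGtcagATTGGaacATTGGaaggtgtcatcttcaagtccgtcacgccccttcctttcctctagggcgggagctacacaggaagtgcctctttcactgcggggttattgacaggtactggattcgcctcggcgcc
Cox6b1 held 2 ETS cores and 2 CCAAT boxes and Cox6b2 held 0 and 2, with 14 and 8 CpG dinucleotides in the same windows. Cox7b held 0 ETS cores and 1 CCAAT box, and Cox7b2 held 0 and 3. TGCGCA stood in none of the 4 windows. Of the 97 members tested, 79 had an entry in the table. The ETS core stood in 28 of these 79 windows (35.4%), against 13.8% of the 27025 genes in the table, and the CCAAT box in 34 (43%), against 34.5%. TGCGCA stood in 17 (21.5%), against 6.66%. Matches that share end letters were counted separately, a match is only a run of letters, and genes with several starts were read at the first one listed.

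Oxamate alone changed no member past the threshold, and most members leaned slightly lower. In the quasi-likelihood test of edgeR, 0 of 97 members were called at an adjusted p under 0.05, where 1.22% of all genes were called lower and 3.97% higher. At an unadjusted p under 0.05, 18 members were lower and 1 higher, against 7.12% and 10.2% of all genes, and the DESeq2 test called 1, Atp5j, lower, where it called 1.7% of the genes with an adjusted p lower and 6.2% higher. The single higher one was Ndufaf6, whose mean over all libraries was 3.25 normalized counts. The median log2 fold change of the members was -0.11, with 85 of 97 below 0, against a median of -0.01 and 52% below 0 over all genes tested. For the 86 members whose mean was 100 normalized counts or more it was -0.12, against 0.01 for the 10715 genes at that level. The median was -0.12 for complexes I, III and IV, -0.10 for complex V and -0.07 for complex II. For 18 members all 3 oxamate libraries lay below all 3 vehicle libraries, and for 2 they lay above, where 9.95% and 11.4% of all genes did so. Within complex I, 10 of 30 accessory subunits had an unadjusted p under 0.05 and a lower level, and 0 of 7 core subunits did.

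A single library carried weight in this comparison. Oxamate library 4 lay above libraries 5 and 6 for many members, as in Cox4i1, the broad form of subunit 4, with 7209, 5928 and 5927 normalized counts in vehicle and 6971, 5598 and 5557 in oxamate. Its values lay within the range of vehicle, and those of libraries 5 and 6 below it. Without library 4, 27 members were called lower and 0 higher, among them Cox8c and Cox5a, where 2.86% of all genes were called lower and 6.42% higher, and the members' median was -0.16. Leaving out vehicle library 1, the highest of its group for many members, gave 0 calls and a median of -0.07. Corrections for the transcripts' properties moved the result both ways. Offsets for length alone gave 0 calls (1.36% of all genes were called lower and 2.74% higher) and a median of -0.053, with 71 below 0, and joint offsets for length and GC content gave 1 lower and 0 higher calls (2.7% and 4.1%) and a median of -0.069, with 75 below 0. Offsets for GC content alone gave 13 lower and 0 higher calls (3.25% and 4.98%) and a median of -0.15, with 88 below 0.

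With octyl-L-2HG added to oxamate, 3 members were called lower and 1 higher, all by less than 0.5 on the log2 scale. Sdhaf4, a factor for the assembly of complex II, Atp5g3, which encodes the c subunit of the ATP synthase rotor, and Atp5mpl, a small membrane subunit of ATP synthase, were lower. Cox7a2l, which joins complexes III and IV into supercomplexes, was higher. The 3 lower calls are 3.09% of the members, and over all genes 8.06% were called lower and 3.18% higher. The median of the members was -0.01, with 52 below 0, against -0.04 and 54.5% over all genes, and 9 members were lower and 1 higher at an unadjusted p under 0.05 (15.1% and 8.5% of all genes). At a mean of 100 normalized counts or more, the medians were -0.01 for the 86 members and 0.01 for the 10715 genes. The sign of the median over all tested members was not stable. It turned to 0.048 with 34 below 0 when oxamate library 4 was left out, and to 0.0087 with 46 of 96 below 0 without vehicle library 3. It was also above 0 with DESeq2 size factors (0.018, 45 below 0), the filterByExpr filter (0.0035), no filter on low counts (0.036) and only the groups compared (0.013). The corrections for length and GC content, joint or single, gave 0.034 to 0.068. Over all genes the median moved up as well, as from -0.038 to -0.013 with DESeq2 size factors. For 6 members all 3 octyl-L-2HG libraries lay below all 3 oxamate libraries and for 8 above, where 15.3% and 13.4% of all genes did so.

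Sdhaf4 had 758, 724 and 598 in vehicle, 720.2, 523 and 494 in oxamate and 384, 419.6 and 506 with octyl-L-2HG normalized counts. All 3 libraries with octyl-L-2HG lay below vehicle, but octyl-L-2HG library 9 (506) lay above oxamate library 6 (494), and the log2 fold change against oxamate was -0.43 (SE 0.13, adjusted p = 0.0394). For Atp5g3 the counts were 514, 439.7 and 434 in vehicle, 499, 407 and 387 in oxamate and 335, 323 and 353 with octyl-L-2HG. Every library with octyl-L-2HG lay below every other library, and the log2 fold change was -0.38 (SE 0.11, adjusted p = 0.0217) against oxamate and -0.48 (SE 0.10, adjusted p = 0.00242) against vehicle. The other c subunit genes, Atp5g1 and Atp5g2, encode the same mature protein and were not called in either contrast.

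Atp5mpl gave 1918, 1778 and 1813 in vehicle, 1666, 1833 and 1675 in oxamate and 1346, 1367 and 1506 with octyl-L-2HG normalized counts. Again the octyl-L-2HG libraries lay below the other 6, with a log2 fold change of -0.32 (SE 0.07, adjusted p = 0.00717) against oxamate. Cox7a2l gave 2177, 1962 and 1934 in vehicle, 2023, 1717 and 1775 in oxamate and 2383, 2354 and 2312 with octyl-L-2HG. It went the other way, with all 3 octyl-L-2HG libraries above the other 6, at 0.33 (SE 0.08, adjusted p = 0.00726) against oxamate and 0.19 (SE 0.08, adjusted p = 0.084) against vehicle, which missed the threshold. Against vehicle, Cox7a2l was called in 7 of 10 other fits (0.13 to 0.32 over the 10) and in 2 of 9 fits with a library left out. The calls of Sdhaf4, Atp5g3 and Atp5mpl against oxamate were each lost without octyl-L-2HG library 7 and again without library 8, where that of Cox7a2l was kept. Without oxamate library 4 the calls of Sdhaf4 and Atp5g3 were lost, and without oxamate library 5 those of Atp5mpl and Cox7a2l. Sdhaf4, whose call was kept in 4 of the 9 fits with a library left out (log2 fold change -0.56 to -0.24, the smallest without oxamate library 4), also lost it without vehicle library 2 or 3, with the filterByExpr filter and under the corrections for length and GC content, joint or single. The correction for length alone ended the calls of Atp5g3 and Atp5mpl against oxamate as well. Over 10 other fits, the log2 fold change against oxamate was -0.43 to -0.28 for Atp5g3 and -0.36 to -0.19 for Atp5mpl.

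Oxamate with octyl-L-2HG against vehicle gave the most calls among the members. Of 97, 25 were called lower and 0 higher, or 25.8% lower, against 10.6% lower and 7.48% higher among all genes. The DESeq2 test called 24 lower, all of them among the 25, and 1 higher, Cox7a2l, where it called 10.5% of the genes with an adjusted p lower and 11.1% higher. The median was -0.12, with 73 of 97 below 0, against -0.05 and 55% over all genes. Without vehicle library 1 it was -0.075, with 63 below 0. Of the 86 members whose mean was 100 normalized counts or more, 24 (27.9%) were called lower, and their median was -0.12. Over the 10715 genes at that level the median was 0.03. For 34 members all 3 libraries lay below all 3 of vehicle, and for 6 above, where 18.5% and 18% of all genes did so. At an unadjusted p under 0.05, 37 were lower and 3 higher (17.1% and 12.9% of all genes). Both contrasts of the octyl-L-2HG group share its 3 libraries, and each is given by its own values.

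The count of lower calls and the members' median depended on a correction for transcript length. Offsets for transcript length and GC content in each library left 7 lower calls of these 25, namely Atp5g3, Cox6a1, Ndufa11b, Ndufb2, Sdhb, Uqcrfs1 and Uqcrq, and gave 9 higher calls, where 10.6% of all genes were called lower and 10.7% higher, and moved the members' median from -0.12 to 0.0072. With offsets for length alone, 3 of the 25 lower calls were left (Ndufb2, Sdhaf4 and Uqcrfs1), 6 members were called higher and the median was 0.018, where 9% of all genes were called lower and 7.45% higher. With offsets for GC content alone, 31 were called lower and 3 higher and the median was -0.10, where 11.6% and 12.1% of all genes were. Against oxamate the joint correction gave 9 higher and 2 lower calls (8.91% and 8.42% of all genes) and a median of 0.07, and length alone gave 5 higher and 0 lower calls (5.46% and 6.75%) and a median of 0.063. Leaving out a library gave 11 to 37 calls. There were 11 lower and 0 higher calls without octyl-L-2HG library 7 (7.27% and 4.73% of all genes), 12 and 0 without library 8 (7.4% and 4.86%), 12 and 1 without vehicle library 1 (9.48% and 5.94%) and 35 and 2 without oxamate library 4 (13.7% and 11.4%).

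By complex, the share called lower against vehicle was 8 of 45 for complex I, 2 of 8 for complex II, 2 of 8 for complex III, 6 of 17 for complex IV and 6 of 17 for ATP synthase, and the other call was Ndufa11b. Over all genes 10.6% were called lower. Within complex I the 8 calls were all accessory subunits (8 of 30), while 0 of 7 core subunits, which carry the flavin and iron-sulphur clusters, and 0 of 8 assembly factors were called. No test of the difference between these classes was made. Complex IV had 4 of its 11 broad forms (Cox5a, Cox6a1, Cox6c and Cox7c) and 2 of its 5 restricted forms (Cox6b2 and Cox8c) among the calls. In ATP synthase the calls were 1 of 5 F1 subunits (Atp5e), 1 of 3 c ring genes (Atp5g3), 3 of 5 membrane subunits (Atp5l, Atp5md and Atp5mpl) and 1 of 4 peripheral stalk subunits (Atp5j).

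**Figure D3:**
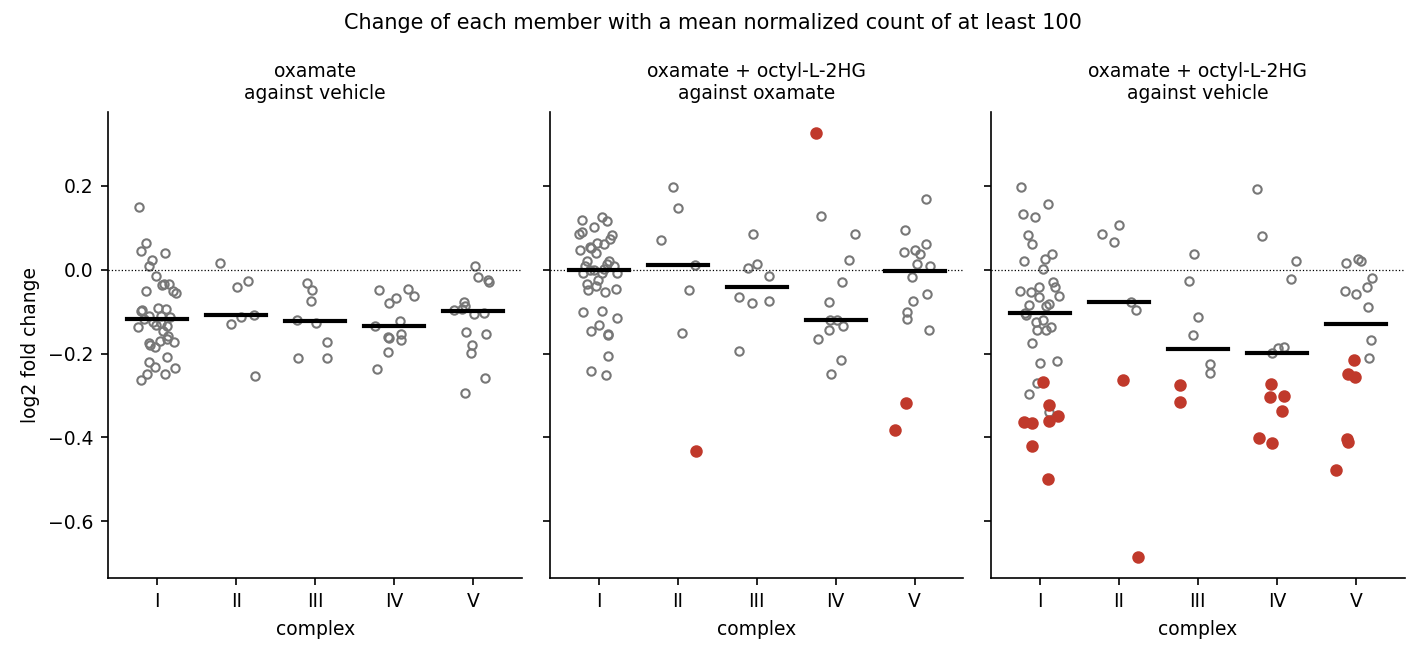
Log2 fold change by complex of each member whose mean was 100 normalized counts or more, in the 3 comparisons; filled points passed an adjusted p under 0.05 in edgeR's test and bars are medians, and the extra copy Ndufb11b is not drawn. No point is filled for oxamate against vehicle, 4 are for octyl-L-2HG against oxamate, and the called members against vehicle all lie below 0.

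Sdhaf4 had the largest fall of these against vehicle among members whose mean was 100 normalized counts or more, at -0.68 (SE 0.13, adjusted p = 0.000815). Next was Ndufb6, an accessory subunit in the membrane arm of complex I, with 579, 473 and 424 in vehicle, 469.7, 422 and 344 in oxamate and 314, 362 and 382 with octyl-L-2HG. Its octyl-L-2HG values lay below all of vehicle and partly among those of oxamate, and its log2 fold change against vehicle was -0.50 (SE 0.12, adjusted p = 0.00588). Ndufc2, another membrane arm subunit, gave 362, 338 and 319.6 in vehicle, 346, 289 and 261 in oxamate and 263, 236 and 272 with octyl-L-2HG, and a log2 fold change of -0.42 (SE 0.11, adjusted p = 0.00879) with no overlap between vehicle and octyl-L-2HG.

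For Cox6a1, a structural subunit of cytochrome c oxidase, the counts were 2613, 2334 and 2176 in vehicle, 2292, 2126 and 1917 in oxamate and 1738, 1833 and 1861 with octyl-L-2HG. The octyl-L-2HG libraries lay below all others, and the log2 fold change was -0.41 (SE 0.08, adjusted p = 0.00102) against vehicle and -0.25 (SE 0.08, adjusted p = 0.0545) against oxamate, where it missed the threshold. Atp5e, the epsilon subunit of the F1 stalk, gave 2176, 1686 and 1631 in vehicle, 1795, 1479 and 1185 in oxamate and 1177, 1343 and 1665 with octyl-L-2HG. Its groups overlapped, since octyl-L-2HG library 9 (1665) lay above the lowest vehicle library, and the call was marginal at -0.41 (SE 0.14, adjusted p = 0.0479). It was kept in 2 of 9 fits with a library left out (log2 fold change -0.57 to -0.27, the smallest without vehicle library 1), in 4 of 10 other fits, and not by the DESeq2 test. Cox8c, the most abundant member per kilobase, had -0.24 in oxamate against vehicle and -0.17 with octyl-L-2HG against oxamate, and was called only with octyl-L-2HG against vehicle, at -0.40 (SE 0.08, adjusted p = 0.000723).

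**Figure D4:**
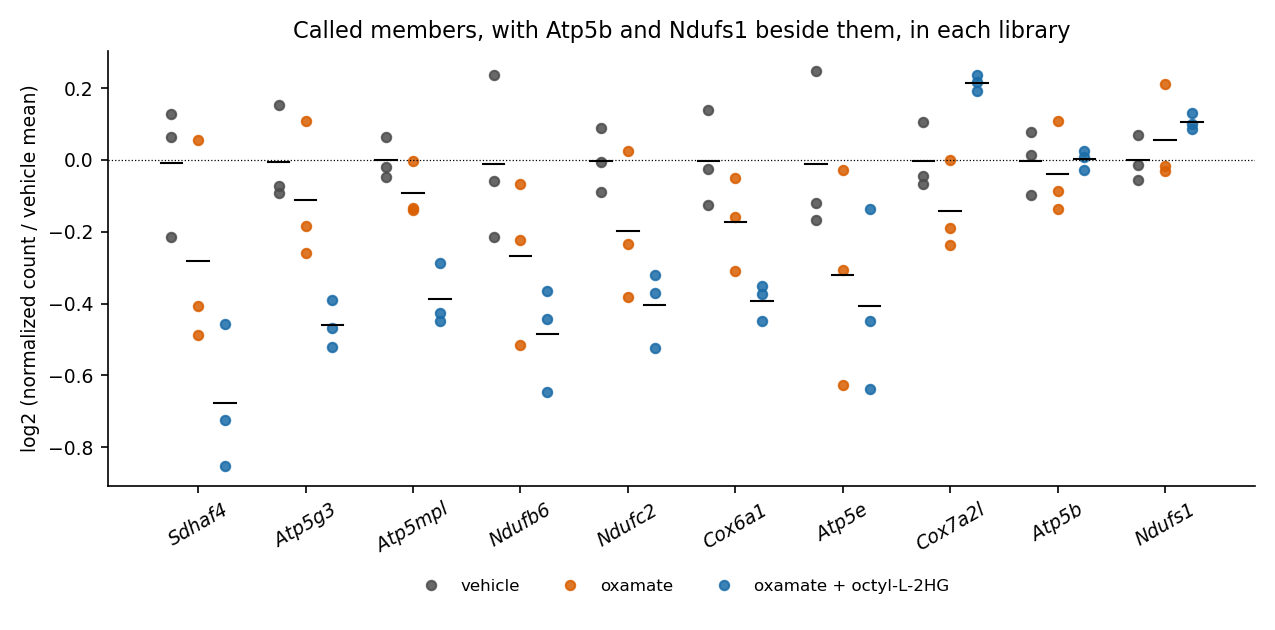
Normalized count in each library relative to the vehicle mean, on a log2 scale, for the members named by the size of their change, with Atp5b and Ndufs1 beside them; points are libraries and dashes group means. The octyl-L-2HG libraries of Atp5g3, Atp5mpl and Cox6a1 lie below all other libraries, those of Cox7a2l lie above, and the groups of Atp5b overlap.

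Of 10 central subunits listed for description, 3 (Sdhb, Uqcrfs1 and Cox5a) were called lower with octyl-L-2HG against vehicle, and 0 in the other contrasts, where 10.6% of all genes were called lower against vehicle, 8.06% against oxamate and 1.22% in oxamate against vehicle. Atp5b had 25631, 22703 and 24502 in vehicle, 26183, 22847 and 22085 in oxamate and 23833, 24407 and 24694 with octyl-L-2HG normalized counts, and log2 fold changes of -0.03, 0.01 and -0.02 in the 3 contrasts (SE 0.07 each). The range of vehicle covered all 3 libraries with octyl-L-2HG. Its partner in the F1 head, the alpha subunit Atp5a1, gave 8445, 7044 and 7261 in vehicle, 8411, 6948 and 7053 in oxamate and 7834, 7889 and 7697 with octyl-L-2HG, with 0.02 (SE 0.08, adjusted p = 0.911) against vehicle. Neither subunit was called in any contrast.

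Ndufs1, the largest core subunit of complex I, had 5410.1, 4960.4 and 5103 in vehicle, 5966, 5049 and 5099 in oxamate and 5470.2, 5533 and 5642 with octyl-L-2HG, and its log2 fold change with octyl-L-2HG against vehicle was 0.08 (SE 0.07, adjusted p = 0.482). Ndufv1, which binds NADH, had 4121, 3338 and 3823 in vehicle, 4111, 3391 and 3346 in oxamate and 3544, 3699 and 3552 with octyl-L-2HG, and -0.09 (SE 0.08, adjusted p = 0.554). Sdha, the flavoprotein of complex II that oxidizes succinate, had 5458, 5240.0 and 5618 in vehicle, 5893, 5242 and 5308 in oxamate and 6019, 5779.9 and 5782 with octyl-L-2HG, and 0.09 (SE 0.07, adjusted p = 0.421). For Ndufs1 and Sdha the octyl-L-2HG libraries lay just above all of vehicle without passing the test, and those of Ndufv1 lay within it.

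Sdhb and Uqcrfs1, the iron-sulphur subunits of complexes II and III, were called lower with octyl-L-2HG than in vehicle. Sdhb had 3808, 3335 and 3137 in vehicle, 3585, 2990.4 and 2904 in oxamate and 2759, 2974 and 2967 with octyl-L-2HG, and a log2 fold change of -0.26 (SE 0.09, adjusted p = 0.0367) with octyl-L-2HG against vehicle. Uqcrfs1 had 4005, 3703 and 3543 in vehicle, 3681, 3458 and 3175 in oxamate and 2993, 2965 and 3217 with octyl-L-2HG, and -0.32 (SE 0.07, adjusted p = 0.00432). Both were separate from vehicle in all 3 octyl-L-2HG libraries, and both kept their call under the joint length and GC correction. The call of Sdhb was lost under the correction for length alone and in 5 of 9 fits with a library left out, namely vehicle library 1 or 2 and octyl-L-2HG library 7, 8 or 9, and that of Uqcrfs1 was kept in all of these. Uqcrc1, a core subunit of complex III without a redox centre, had 14454, 11784 and 11883 in vehicle, 14289, 11150.1 and 10620.5 in oxamate and 11278, 11796 and 11688 with octyl-L-2HG and was not called (-0.15 (SE 0.09, adjusted p = 0.291)).

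Cox5a and Cox4i1, which bind each other early in the assembly of cytochrome c oxidase, differed in their calls. Cox5a had 7877, 7018 and 6740.3 in vehicle, 6743, 6150.1 and 5934 in oxamate and 5647, 6010.4 and 6505 with octyl-L-2HG, and -0.27 (SE 0.08, adjusted p = 0.0149) against vehicle. Cox4i1 had 5663, 5524 and 5801 with octyl-L-2HG, below all of vehicle, and -0.19 (SE 0.09, adjusted p = 0.156). The difference between the 2 genes was not tested. The call of Cox5a was lost without vehicle library 1 and without octyl-L-2HG library 7 or 8, and under the length corrections, joint (-0.055) or single (-0.066). Cox4i1 was called without oxamate library 4, with total counts as scaling, with only the groups compared and under GC content alone. Atpif1, the inhibitor protein of ATP synthase, falls outside the symbol pattern under that older name, and had 7338, 6800.0 and 6080.0 in vehicle, 6507, 5948 and 5991 in oxamate and 6634, 6583 and 6171 with octyl-L-2HG and no call (-0.08 (SE 0.07, adjusted p = 0.493)).

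With 3 members (Sdhaf4, Atp5g3 and Atp5mpl), the call was made in both contrasts of the octyl-L-2HG group, which share its libraries. The test for any difference among the 3 groups called 22 of 97 members, where 19.8% of all genes were called.

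The members' changes followed their transcript length. Of the 86 members whose mean was 100 normalized counts or more, the median transcript length was 863 nt, against 2544 nt for the 10696 genes at that level with a known length. Across those members, Spearman's rho between length and log2 fold change was 0.56 for oxamate against vehicle, 0.28 for octyl-L-2HG against oxamate and 0.48 for octyl-L-2HG against vehicle, and across all those genes it was 0.37, 0.15 and 0.37. These are descriptions across genes, which share the same libraries and are not independent. Of the 51 members shorter than 1000 nt, 20 (39.2%) were called lower with octyl-L-2HG against vehicle, and of the 35 longer ones 4 (11.4%). Among all genes at that level, 28.2% of the 1590 shorter than 1000 nt and 11% of the 9106 longer ones were called lower. Transcript lengths are those of the principal protein-coding transcripts in an annotation of an earlier genome build, and the counts and medians under a correction for length alone stand beside each contrast above.

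**Figure D5:**
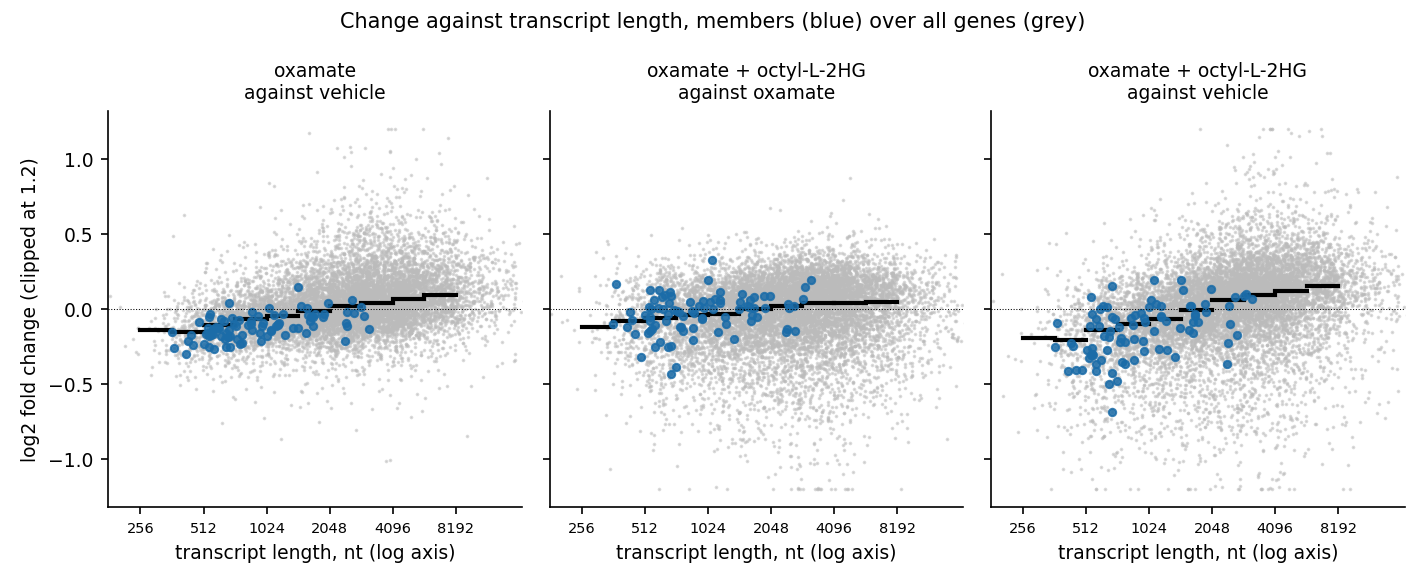
Log2 fold change against transcript length (nt, log axis) in the 3 comparisons, for members (blue) and all genes (grey) whose mean was 100 normalized counts or more; black steps are medians of all such genes in bins of length, and values beyond 1.2 are drawn at 1.2. Medians of all genes rise with length from left to right, and most members lie at the short end, where Spearman's rho over the members is 0.56, 0.28 and 0.48.

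The other genes of the pathway were counted by list. Cycs, Cyct and Cyc1, the cytochromes c and c1, were not called in any contrast, and Cyc1, the cytochrome c1 of complex III, had 321, 302 and 236 in vehicle, 309, 295 and 271 in oxamate and 265, 265 and 252 with octyl-L-2HG normalized counts. Of 11 mitochondrially encoded transcripts tested, 0 were called in oxamate against vehicle and 2, mt-Nd2 and mt-Cytb, were called lower in both contrasts with octyl-L-2HG, where 8.06% (against oxamate) and 10.6% (against vehicle) of all genes were. Such transcripts took 0.0859% to 0.0876% of the counts in the group means after poly(A) selection. Among those tested, mt-Co2, mt-Atp6 and mt-Co3 had 17, 31 and 87 counts in all 9 libraries together, against 175186 for mt-Co1. Only large changes in these low ones could be called. Of 39 further assembly factors tested, 1 was called higher in oxamate against vehicle (Atpaf1), 1 higher (Tmem186) and 2 lower (Atpaf1 and Nubpl) with octyl-L-2HG against oxamate, and 2 higher (Foxred1 and Coa5) and 4 lower (Nubpl, Cox19, Cmc1 and Higd1a) with octyl-L-2HG against vehicle, where 7.48% of all genes were called higher and 10.6% lower. The shares over all genes were 3.97% higher in the first of these contrasts, and 3.18% higher and 8.06% lower in the second. These genes are named after their values were seen. Atpaf1, which assembles the F1 head of ATP synthase, had 302, 327 and 343 in vehicle, 398, 434 and 455 in oxamate and 292, 318 and 339.8 with octyl-L-2HG. Its 3 oxamate libraries lay above the other 6, at 0.41 (SE 0.09, adjusted p = 0.00988) against vehicle and -0.46 (SE 0.09, adjusted p = 0.00262) for octyl-L-2HG against oxamate.

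Among 12 regulators of respiratory genes, 1 was called lower in oxamate against vehicle, 1 higher (Esrra) and 2 lower (Gabpb1 and Ppargc1b) with octyl-L-2HG against oxamate, and 1 higher and 3 lower with octyl-L-2HG against vehicle. Over all genes, 1.22% were called lower in the first of these contrasts, 3.18% higher and 8.06% lower in the second, and 7.48% higher and 10.6% lower in the third. The calls against vehicle, named after their values were seen, were Tfam, which packages and transcribes mitochondrial DNA (-0.64 (SE 0.09, adjusted p = 2.32e-05)), Gabpb1, a subunit of the ETS factor GABP (-0.66 (SE 0.09, adjusted p = 3.73e-05)), Nrf1, the nuclear respiratory factor (-0.37 (SE 0.08, adjusted p = 0.00313)), and Esrra, a nuclear receptor that drives such genes (0.55 (SE 0.12, adjusted p = 0.00189)). Tfam had 665, 722 and 712 in vehicle, 475, 574 and 571 in oxamate and 479.5, 422 and 462 with octyl-L-2HG, and was the one called in oxamate alone, at -0.37 (SE 0.09, adjusted p = 0.0129). Gabpa, the DNA-binding subunit of GABP, had 677, 735 and 712 in vehicle, 655, 711 and 798 in oxamate and 893, 787 and 770.4 with octyl-L-2HG and was not called. No electron transfer flavoprotein gene of the 3 tested was called.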

How the data were processed

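PolyA RNA from 9 RS libraries was prepared with a KAPA stranded kit and sequenced. The authors trimmed reads (cutadapt 2.10, per the submitters' processing notes), aligned them with TopHat2 2.1.1 to GRCm39 and counted reads per Ensembl gene with HTSeq 2.01. The deposited table holds the raw count per gene and a normalized signal, made by dividing that count by the library's size factor from DESeq2 1.36.0. The strand setting of the counting is not given in the sources used here. Raw counts of the 25128 genes with at least 10 summed counts were tested in edgeR 4.0.16 (R 4.3.3): TMM scaling, 1 robust quasi-likelihood fit of all 9 libraries, Benjamini-Hochberg adjustment over all genes, threshold 0.05. Levels are the deposited normalized counts, divided by transcript length (GENCODE on GRCm38, known for 99.6% of the tested genes) where stated. DESeq2 1.42.0 was an alternative test, and length and GC offsets, joint or single, came from smooth curves (mgcv 1.9.3). Scripts were tested on simulated data. The members and lists were chosen with earlier results of these data known. Members were named if they were among the 6 largest called rises or falls of a contrast at a mean normalized count of at least 100, a listed core subunit, in a listed pair of forms, or called at both steps. No column of values went unused.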

Additional observations from a re-analysis of the deposited data

How the results depend on the processing

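No paired analysis was possible because the groups share no replicate numbers (1 to 3, 4 to 6 and 7 to 9). In oxamate against vehicle, with 0 members called, total counts as scaling gave 2 lower (1.35% of all genes), the DESeq2 test 1 lower (1.7%), no filter on low counts 2 lower (1.14%), filterByExpr 1 lower (2%), the length and GC correction 1 lower (2.7%), GC alone 13 lower (3.25%), and an unadjusted p under 0.05 gave 19 (18 lower). With octyl-L-2HG against oxamate, where 4 were called, total counts gave 7 (6 lower, where 10% of all genes were lower and 1.68% higher). In the same contrast an adjusted p under 0.01 gave 2 (1 lower, where 4.14% of all genes were lower and 0.879% higher). An unadjusted p gave 10 (9 lower, 15.1% and 8.5%), and the length and GC correction gave 11 (2 lower, 8.42% and 8.91%). With octyl-L-2HG against vehicle, where 25 were called, total counts gave 38, all lower and including those 25 (13.4% of all genes were lower and 4.9% higher), an adjusted p under 0.01 gave 11, all lower (6.29%), an unadjusted p gave 40 (37 lower), the length and GC correction gave 16 (7 lower) and length alone 9 (3 lower). The test for any difference, which called 22, gave 6 at an adjusted p under 0.01, 9 under length alone and 35 under GC alone. For this test the share over all genes was counted in the main fit only (19.8%), so these counts have no share to stand beside. The corrections for length or GC alone were added after the data had been seen. The length and GC correction moved the members' median log2 fold change to 0.068 against oxamate and 0.0072 against vehicle, from -0.01 and -0.12, and length alone to 0.063 and 0.018. In oxamate against vehicle the median went from -0.11 to -0.069 and -0.053. Leaving out 1 library gave 0 to 27, 1 to 7, 11 to 37 and 5 to 44 calls in these 4 tests. With octyl-L-2HG against oxamate, there were 4 higher and 3 lower calls without oxamate library 4 (6.38% and 11.5% of all genes). In that contrast there were 1 higher and 0 lower without octyl-L-2HG library 7 (0.978% and 4.66%) and again without library 8 (1.07% and 4.84%). No share over all genes was counted for the 5 to 44. Without scaling by length, the share of Cox6b2 was 95.8% in vehicle and 94.8% with octyl-L-2HG, and in vehicle, oxamate and octyl-L-2HG that of Cox7b2 was 99.7%, 99.6% and 99.7%, of Cox8c 99.2%, 99.1% and 99.1% and of Ndufa4l2 98.4%, 98.5% and 99%, and Ndufa11b had 5.82% in vehicle. Other causes of these shifts were not tested. The direction of no named member's call was reversed by any alternative run. Members with few counts, such as Cox7b and Ndufa4, have SEs of 0.25 or more on the log2 scale, so that only large changes could be called.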

Other observations

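The windows of 250 bases before the start were also counted for the members called lower with octyl-L-2HG against vehicle, 19 of which had an entry in the RefSeq table. The CCAAT box stood in 11 of these 19 (57.9%), against 43% of the 79 members with an entry and 34.5% of all 27025 genes. The ETS core stood in 6 (31.6%), against 35.4% and 13.8%, and TGCGCA in 4 (21.1%), against 21.5% and 6.66%. These counts were made after the calls were known and no test was run on them.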
